A study of Mus musculus with 4 samples.

Results

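The Runx family comprises the transcription factor genes Runx1, Runx2 and Runx3 and the gene of their shared partner, Cbfb. Every ATAC-seq peak in these 4 genes or within 100 kb of them was taken, with gene positions from the RefSeq annotation of the mouse build GRCm38 (mm10). The rule found 516 of the 455071 peaks in the 4 peak lists. The lists contributed 175 and 145 peaks from the P0 libraries and 85 and 111 from the P8 libraries. Overlapping peaks (1 bp or more) of the 4 libraries were merged into 198 sites, of 172311 in the genome.

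Knee cartilage of mice of the C57BL/6 strain, aged 0 to 4 days, gave the chondrocytes, which were grown in DMEM/F12 with 10% fetal bovine serum. P0 cells were primary cells kept under 24 h in culture. P8 cells had been passaged to passage 8, each time after the number of cells doubled from 24000 to 48000 per cm2, a model in which chondrocytes dedifferentiate. Each passage had 2 libraries, here called A and B, no transgene or drug was used, and P8 cells differed from P0 cells in both passage number and time in culture. ATAC-seq uses a transposase to cut DNA that nucleosomes leave open, so a peak marks a stretch of accessible chromatin. Nothing in the labels ties the libraries to separate cultures or animals, so the spread between the 2 libraries of a passage may be technical. With 2 libraries against 2, a two-sided exact permutation test cannot give a p below 0.333, so no difference below could pass a threshold of 0.05.

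RUNX proteins bind DNA through the Runt domain, and CBFB, which does not touch DNA itself, joins them and strengthens their binding. RUNX2 drives osteoblast formation and the hypertrophic maturation of chondrocytes, RUNX3 acts beside it in maturing cartilage and also in T cells and sensory neurons, and RUNX1 is best known for blood formation and is also made in immature chondrocytes and perichondrium. Each Runx gene has a distal and a proximal promoter, which give proteins with different first residues, and RUNX2 is known to act on its own distal promoter.

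The libraries held 89610 to 145703 peaks. The P0 libraries held 1.40 ± 0.220 times as many as the P8 libraries (ratio of means ± SD, n = 2 and 2) and were deeper, with a lowest background of 194 and 162 tags per 10 kb against 140 and 134. All 8 chondrocyte markers (such as Col2a1, Acan and Sox9) had a peak within 1 kb of a gene end or start in both P0 libraries, and 7 had one in both P8 libraries, all but Matn1. Of 7 blood markers, Spi1 and Lyz2 had such a peak in every library, Cd68 in both P0 libraries and Cd79a in P0 library A, while Ptprc, Csf1r and Cd3e had none. Kdr was the one endothelial marker with such a peak, and Pecam1 and Cdh5 had none. All 4 fibroblast markers had one in both P0 libraries and 2, Col1a1 and Col3a1, in both P8 libraries. In these bulk libraries, fewer cells of a type and less open chromatin per cell cannot be told apart. Summed peaks around the chondrocyte markers numbered 319 and 263 at P0 and 161 and 199 at P8. Those around the blood markers numbered 149 and 128 at P0 and 85 and 105 at P8, those around the endothelial markers 75 and 60 against 30 and 53, and those around the fibroblast markers 101 and 83 against 76 and 76. The part of such cells in the results below was not tested.

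RefSeq's promoter table for GRCm38.p6 lists 6 starts for the 4 genes, a distal and a proximal one for Runx1 and Runx3 and 1 each for Runx2 and Cbfb. That of Runx2 lies at the upstream end of the gene and is called distal here. The 3 distal promoters are shown for a stretch they share, and the Runx3 proximal promoter because a peak lay across its start at P0 alone, all 5′ to 3′ from 250 bases before the start to 50 from it. Capitals mark the core RUNX motif TGTGGT or its reverse complement ACCACA.
Runx1 distal, chr16:92826025-92826324, minus strand: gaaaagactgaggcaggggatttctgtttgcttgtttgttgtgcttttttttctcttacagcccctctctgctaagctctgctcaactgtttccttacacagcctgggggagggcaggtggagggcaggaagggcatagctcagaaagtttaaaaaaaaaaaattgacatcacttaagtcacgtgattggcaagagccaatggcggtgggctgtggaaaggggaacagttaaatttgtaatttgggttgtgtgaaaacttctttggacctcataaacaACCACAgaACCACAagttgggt
Runx2 distal, chr17:44814578-44814877, minus strand: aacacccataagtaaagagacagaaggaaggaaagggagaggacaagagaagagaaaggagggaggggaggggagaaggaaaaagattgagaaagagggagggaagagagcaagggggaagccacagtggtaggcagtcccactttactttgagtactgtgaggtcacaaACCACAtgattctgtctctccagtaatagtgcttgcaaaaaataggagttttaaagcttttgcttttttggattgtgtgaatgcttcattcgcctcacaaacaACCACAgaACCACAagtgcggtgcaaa
Runx3 distal, chr4:135120395-135120694, plus strand: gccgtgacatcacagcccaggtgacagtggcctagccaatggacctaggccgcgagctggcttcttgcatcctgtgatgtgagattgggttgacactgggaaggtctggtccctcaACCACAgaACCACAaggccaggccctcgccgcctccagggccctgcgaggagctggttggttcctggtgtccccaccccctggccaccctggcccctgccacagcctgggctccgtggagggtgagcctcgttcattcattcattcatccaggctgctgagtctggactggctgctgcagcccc
Runx3 proximal, chr4:135152295-135152594, plus strand: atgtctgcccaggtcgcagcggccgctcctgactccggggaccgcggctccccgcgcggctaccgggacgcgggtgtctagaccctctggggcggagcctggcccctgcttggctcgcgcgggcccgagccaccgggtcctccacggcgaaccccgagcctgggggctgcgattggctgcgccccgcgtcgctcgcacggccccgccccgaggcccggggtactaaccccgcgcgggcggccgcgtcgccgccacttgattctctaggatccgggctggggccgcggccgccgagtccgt

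The 3 distal promoters shared a run of 18 bases that holds a pair of RUNX motifs whose first bases are 8 bases apart, both in the same orientation. It is the longest run common to all 3, and it was looked for after the sequences had been seen.
Shared run: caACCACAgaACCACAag
The run began at base 27 of the Runx1 transcript, at base 22 of the Runx2 transcript and 136 bases before the Runx3 start. Among 32817 promoters of the same length, 4 held it on either strand. These were the 3 distal Runx promoters and that of Gm16225, a gene of the other strand whose promoter overlaps that of Runx3. A pair of RUNX motifs at this spacing stood in 7 promoters (0.0213%). One RUNX motif on either strand is common, in 16.8% of all promoters, and 2 or more stood in 1.81%. Runx2 distal had 3 of them, the extra one 80 bases before the start, and the proximal promoters of Runx1 and Runx3 and the Cbfb promoter had none. On both strands, the AP-1 motif TGAGTCA (5.21% of promoters) stood in none of the 6. The ETS motif CCGGAA (14.9%) stood once, 106 bases before the Runx1 proximal start. The SOX motif ACAAT (31.0%) stood once, 9 bases before the Runx2 start. No match overlapped another. A match describes letters and is not evidence that a factor was bound.

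Base composition separated the promoters further. The Runx1 and Runx2 distal promoters were 45% and 45.3% G and C with 2 CpG pairs each, and the Runx3 distal promoter was 63.7% G and C with 8. The proximal promoters of Runx1 and Runx3 held 35 and 45 CpG pairs and the Cbfb promoter 30, against a median of 7 (quartiles 3 and 20) over all promoters.

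Promoter accessibility differed between the passages most at Runx3. Fold enrichment is the number of tags piled up at a peak's summit over the local background, each plus 1, as MACS2 gives it. Within 1 kb of the Runx3 distal start the highest fold enrichment was 11.3 and 13.0 in the P0 libraries and 5.39 and 6.25 in the P8 libraries. Both P0 values lay above both P8 values, and the P0 to P8 ratio was 2.08 ± 0.302 (exact permutation p = 0.333, n = 2 and 2). Of 12451 starts of protein-coding genes with a peak in all 4 libraries, 99.7% had a lower ratio, and their median was 1.17 (quartiles 1.05 and 1.30). The pileup at the summit was 57 and 54 tags at P0 but 11 and 12 at P8. Divided by the lowest background of each library, which stands for its depth, the pileup was 40.3 and 45.6 against 10.8 and 12.2, a ratio of 3.73 ± 0.473 where the median start had 1.29. The peak was also wider at P0, 545 and 501 bp against 237 and 269 bp. Its summit lay 135, 109, 110 and 162 bases before the start in P0 libraries A and B and P8 libraries A and B in turn, so that of P0 library A fell within the shared run.

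The Runx3 proximal promoter had a peak across its start in the P0 libraries alone, at chr4:135152228-135152623, with fold enrichments of 5.11 and 4.81. Of 13270 starts of protein-coding genes with any peak 250 bp before to 50 bp after, 5.95% had peaks in both P0 and no P8 library. A site 290 bp downstream, chr4:135152835-135153094, had 4.22 and 4.11 at P0, and of the P8 libraries B alone had a peak, of 3.71. The site 883 bp downstream, chr4:135153428-135153992, had 4.04 and 4.42 at P0 and none at P8. A last site at a Runx3 start, chr4:135119927-135120237, 408 bp upstream of the distal one, had 4.12 and 3.30 at P0 and none at P8.

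The Runx2 distal promoter was also higher at P0, by less. Within 1 kb of its start the fold enrichment reached 7.43 and 8.85 in the P0 libraries, with 6.43 and 6.57 in the P8 libraries, a ratio of 1.25 ± 0.156 that exceeded 67.4% of starts. At the site across the start, chr17:44814510-44814878, the peaks of the P0 libraries measured 369 and 226 bp, those of the P8 libraries 97 and 78 bp. That site had 5.05 in P8 library B, whose higher peak of 6.57 belonged to the site chr17:44814955-44815218, 328 bp upstream. There the P0 libraries had 6.45 and 4.62 and P8 library A had no peak, and the remaining site, chr17:44814308-44814408, had a peak in P0 library B alone (4.61).

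The Runx1 promoters showed no such difference. Fold enrichment at the site across the distal start, chr16:92825827-92826207, was 5.22 and 5.05 at P0, with 5.40 and 5.90 at P8. At the site across the proximal start, chr16:92697219-92697630, it was 6.19 and 6.68 at P0, with 6.87 and 6.76 at P8. Both P8 values lay above both P0 values at each promoter, by less than 1 unit. Taken as the highest value within 1 kb, the P0 to P8 ratios were 0.937 ± 0.0615 at the distal and 0.944 ± 0.0526 at the proximal start, and 6.18% and 6.92% of starts had a lower one. On the depth-scaled pileup the passages overlapped at both promoters, with ratios of 0.90 and 0.96, and 3.12% and 4.86% of starts had a lower one. With pileup divided by the median pileup of each library the ratios were 1.03 and 1.09, the other direction. On that measure both P0 values lay above both P8 values at 64.15% of all sites shared by the 4 libraries, and the reverse held at 8.89%. A site 366 bp downstream of the proximal start, chr16:92696681-92696963, had 4.08 and 3.16 at P0 and 4.14 and 5.11 at P8. The other 3 sites near Runx1 starts had peaks in some libraries only. The site chr16:92824897-92825356, 718 bp downstream of the distal start, had 4.49 and 5.36 at P0 and no P8 peak. The site chr16:92697692-92698149 had 3.44 and 4.11 at P0, with a P8 peak in library B alone, of 3.62, and chr16:92698229-92698302 had a peak in P0 library A alone (2.71).

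The Cbfb promoter was the widest site of its locus, chr8:105170192-105171703. It reached a fold enrichment of 8.76 and 10.2 at P0, with 9.06 and 8.84 at P8, so the passages overlapped, with a ratio of 1.06 ± 0.113. It was 1512 and 1395 bp long in the P0 libraries and covered 1240 and 1038 bp in the P8 libraries. The depth-scaled pileup, 48.7 and 55.7 against 39.1 and 42.9, had both P0 values above, at a ratio of 1.27 ± 0.146 that exceeded 46.1% of starts. In all, fold enrichment of both P0 libraries exceeded both P8 libraries at 3 of the 6 promoters, Runx2 distal and the 2 of Runx3, where 60.6% of all 14501 starts with a peak did so.

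**Figure D1:**
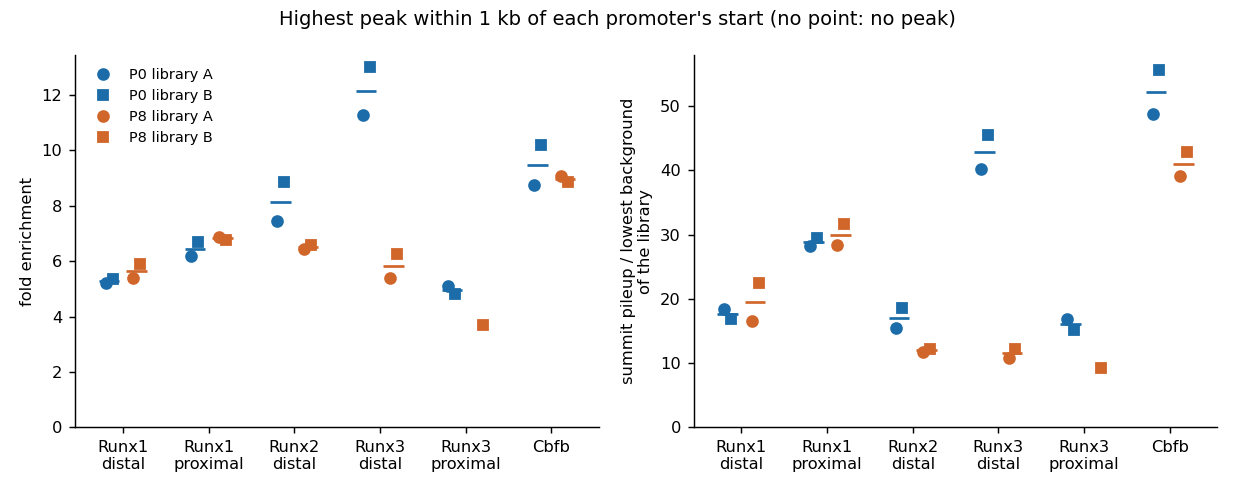
Highest fold enrichment (left) and depth-scaled summit pileup (right) within 1 kb of each of the 6 starts, with 1 point per library (P0 in blue, P8 in orange, circles for library A and squares for library B) and a bar at the mean of 2 libraries. The Runx3 distal promoter stands at 11.3 and 13.0 at P0 against 5.39 and 6.25 at P8, while the Runx1 points of both passages lie within 1 unit of fold enrichment of each other at each promoter.

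Around whole loci, every gene had more peaks at P0, and Runx2 and Runx3 differed the most. The windows held 44 and 39 peaks at P0 and 21 and 22 at P8 for Runx2, a ratio of 1.93 ± 0.176. For Runx3 they held 45 and 34 at P0 and 19 and 22 at P8, a ratio of 1.93 ± 0.429. Both passages were well separated at these loci, and the ratios exceeded those of 90.9% and 90.8% of 20769 protein-coding genes, whose median was 1.29 (quartiles 1.11 and 1.52). Runx1 had 48 and 40 peaks at P0 and 22 and 36 at P8, a ratio of 1.52 ± 0.553 above 74.6% of genes. Its P8 libraries differed widely from each other, and the ratio was 1.22 without P8 library A and 2.00 without P8 library B. Cbfb had 38 and 32 at P0 and 23 and 31 at P8, a ratio of 1.30 ± 0.314 above 50.9% of genes. The exact permutation p was 0.333 for each of the 4 genes. All 4 members thus had more peaks in both P0 than in both P8 libraries, which held for 56.1% of 21019 genes. With the same number of peaks (89610) kept from each library, this held for 3720 genes in place of 11790, and for 2 members. These were Runx2 with 23 and 32 against 21 and 20 peaks and Runx3 with 25 and 25 against 19 and 20. Their ratios of 1.34 and 1.28 exceeded 91.1% and 88.7% of genes in that setting, where the median gene had 0.964.

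**Figure D2:**
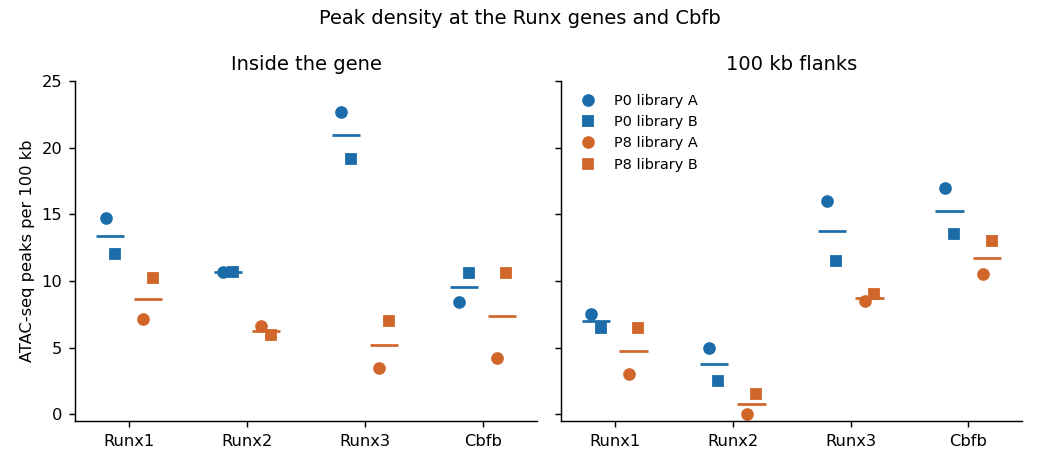
ATAC-seq peaks per 100 kb inside each gene (left) and in its 100 kb flanks (right), 1 point per library and a bar at the mean of 2. Inside Runx3 the P0 libraries reach 22.7 and 19.2 peaks per 100 kb and the P8 libraries 3.49 and 6.98, while inside Cbfb the points of the passages overlap.

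Runx3, on chr4:135120645-135177990, had fewer peaks at P8 than at P0, and the gap was wider inside the gene than around it. Peaks overlapping the 57.3 kb gene numbered 13 and 11 at P0 and 2 and 4 at P8, a ratio of 4.00 ± 1.94 that exceeded 98.0% of 8226 genes with at least 10 peaks. The flanks held 32 and 23 peaks at P0 and 17 and 18 at P8. With equal numbers of peaks per library the gene held 8 and 8 at P0 and 2 and 3 at P8, a ratio of 3.20 above 99.3% of genes, and with backgrounds matched between libraries it held 12 and 11 against 2 and 4. Of its 15 sites in or within 1 kb of the gene, 7 (46.7%) had peaks in both P0 and no P8 library, against 16.6% of 100599 such sites at all genes. In turn, 3 of the 15 (20%) had peaks in all 4 libraries, against 36.0%. Most of the 7 sites were weak. Except for chr4:135166555-135166896, at percentiles 73.5 and 49.4 among the peaks of P0 libraries A and B, they lay below the median peak of both. The lowest, chr4:135141535-135141713, was at percentiles 4.47 and 1.75. With −log10 q of at least 5, 26 in place of 38 sites of this class remained over the 4 loci, and the Runx3 window ratio was 1.58.

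These 3 shared sites were the distal promoter and 2 inside the gene, named here after their values were seen. The site chr4:135146473-135147192, 26.2 kb after the distal start, had 9.86 and 11.2 at P0 and 9.42 and 11.1 at P8, so the passages overlapped. The site chr4:135158807-135159380 had 6.07 and 6.26 at P0 and 4.96 and 5.53 at P8. The site with the highest mean fold enrichment of the locus, chr4:135095696-135096207, lay 24438 bp upstream of the distal start and also overlapped between passages, with 11.9 and 11 at P0 and 9.33 and 11.6 at P8. Beside it, the highest sites seen in both P0 and no P8 library were chr4:135166555-135166896 inside the gene (7.64 and 5.78) and chr4:135069856-135070106 upstream (7.17 and 5.11). Next was chr4:135219772-135219864 downstream (4.87 and 5.18), within the neighbouring gene Clic4. The widest site, chr4:135253977-135255067, also lay within Clic4, 134 kb downstream of the distal start, and had 7.53 and 5.93 at P0 and 5.85 and 5.77 at P8.

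Runx2, on chr17:44495987-44814797, had 34 and 34 peaks inside its 319 kb gene at P0 and 21 and 19 at P8. Its flanks held few, 10 and 5 at P0 and 0 and 3 at P8. Only 10 sites lay farther than 1 kb from the gene, and none had a peak in all 4 libraries, against 32.4% of all sites of the genome. The share over flanking sites alone was not computed. The gene overlaps Supt3, which runs on beyond it, and 4930564C03Rik is the only other neighbour. The widest site, chr17:44776823-44777736, was at the Supt3 start and had 13.1 and 10.0 at P0 and 9.73 and 9.03 at P8. The highest site, chr17:44500231-44500827, lay inside Runx2, 314 kb after its start, and overlapped between passages with 10.1 and 12.7 at P0 and 10.9 and 10.8 at P8. Sites with peaks in both P0 and no P8 library were led by chr17:44805443-44805752, 9.03 kb after the start, with 7.23 and 8.32. They also included chr17:44468248-44468497 (6.21 and 6.41), past the end of the gene, and chr17:44510768-44511005 (4.97 and 6.41) inside it. In the middle of the gene, 2 sites went the other way and are named after their values were seen. The site chr17:44654514-44654830 had 5.38 and 5.03 at P0 and 6.25 and 6.97 at P8, and chr17:44734562-44734836 had 3.71 and 3.51 at P0 and 5.84 and 4.03 at P8. Of the 54 Runx2 sites, 25 (46.3%) had a peak in 1 library only, against 33.1% of all sites of the genome, and 15 of these had it in the deepest, P0 library A. That library held 7 of 15 such sites at Runx1, 12 of 16 at Runx3 and 4 of 8 at Cbfb. It held 145703 of all 455071 peaks, and its share of the sites with a peak in 1 library over the genome was not computed. The part of depth was not tested.

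Runx1, on chr16:92601466-92826074, had 33 and 27 peaks inside the gene at P0 and 16 and 23 at P8. The site with the highest mean, chr16:92577385-92577769, lay past the end of the gene, 248 kb after the distal start, and had 16.4 and 16 at P0, with 5.61 and 12 at P8 (libraries A and B). Both P8 values were lower, but they differed from each other by more than the nearer one differed from P0. The widest site, chr16:92620652-92621670 inside the gene, had 10.8 and 10.6 at P0 and 7.54 and 8.51 at P8. Sites with peaks in both P0 and no P8 library were led by chr16:92845648-92846382, 19574 bp upstream of the distal start (6.21 and 7.78), followed by chr16:92705618-92706081 (6.69 and 6.74) and chr16:92605801-92606299 (5.01 and 5.19), both inside the gene. Of its 55 sites, 2 (3.64%) had peaks in both P8 and no P0 library, against 1.84% in the genome, and the other loci had none. These were chr16:92573510-92573674 past the end of the gene, with 3.74 and 4.06, and chr16:92660797-92661023 inside it, with 3.89 and 3.31. Both were weak, at percentiles 7.15 and 13.7 and percentiles 9.39 and 2.14 among the peaks of P8 libraries A and B. With a stricter −log10 q of at least 5, 0 such sites remained over the 4 loci. Clic6 was the only other protein-coding gene in the window.

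Cbfb, on chr8:105170674-105217989, had 4 and 5 peaks inside the gene at P0 and 2 and 5 at P8. Its window was crowded, with 13 neighbours (Ces3b, Ces4a, D230025D16Rik, B3gnt9, Tradd, Fbxl8, Hsf4, Nol3, 4931428F04Rik, Exoc3l, E2f4, Elmo3 and Lrrc29), and 18 of its 40 sites lay within 1 kb of an end or start of another gene. Of those 18, 11 had peaks in all 4 libraries. Across the genome, 14501 starts of protein-coding genes had a peak of any library within 1 kb, and 12451 had one in all 4 libraries. Those numbers count starts and not sites, and the share of all sites near gene ends was not computed. The highest site, chr8:105120921-105121476, lay 49198 bp upstream and had 17.2 and 17.4 at P0 and 11.5 and 14.9 at P8, with both P0 values above. Sites with peaks in both P0 and no P8 library included chr8:105148281-105148557 (7.51 and 10.1), 22117 bp upstream and within the neighbouring gene Ces4a. They also included chr8:105218030-105218236, just past Cbfb (5.38 and 5.29), and chr8:105164538-105164922, 5752 bp upstream (5.82 and 4.30).

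**Figure D3:**
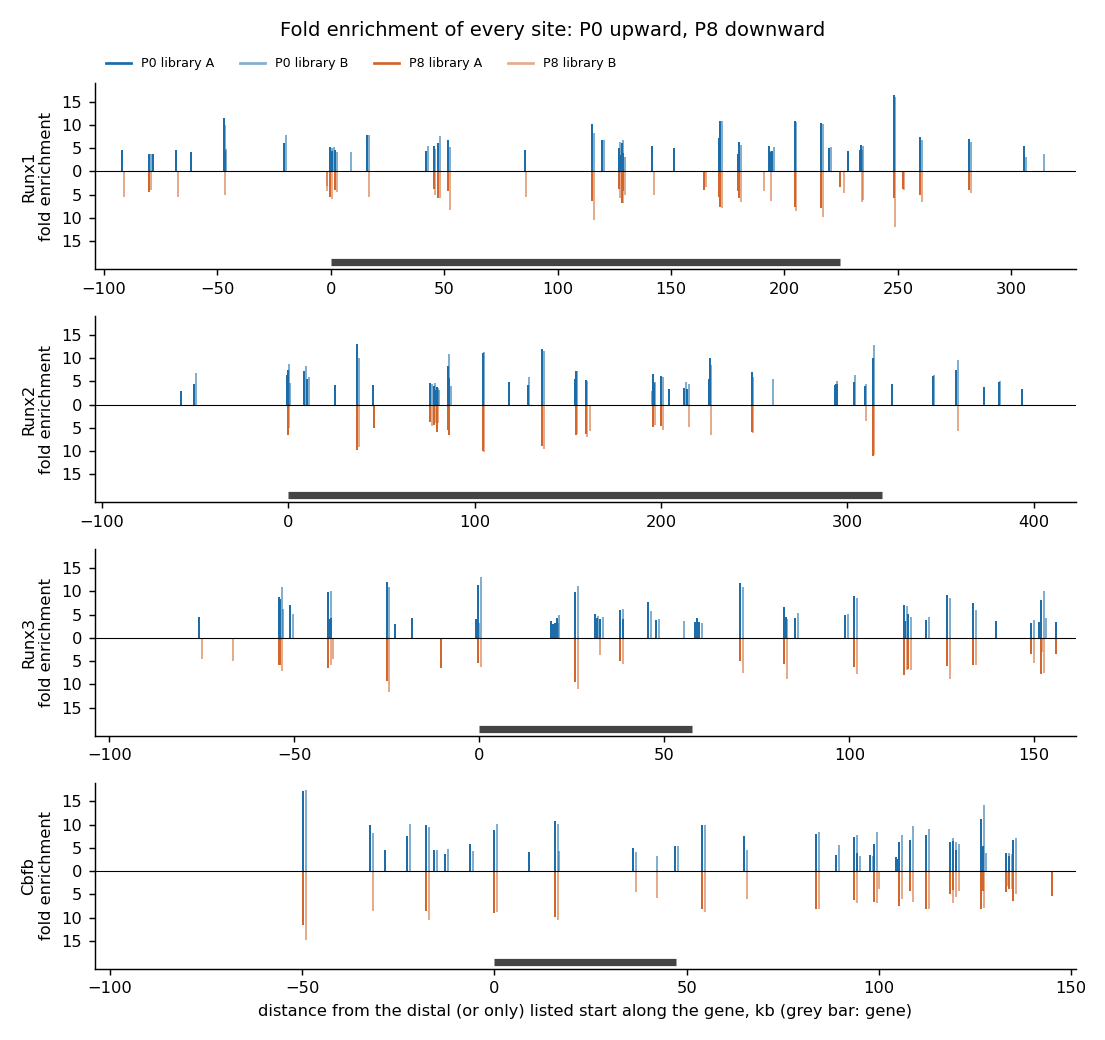
Fold enrichment of every site of the 4 loci against its distance in kb from the distal (or only listed) start, with P0 libraries drawn upward in blue and P8 libraries downward in orange, library B in the paler shade, and the gene as a grey bar. Inside Runx3 most blue lines have no orange line below them, while the site 26.2 kb after the distal start has lines of like length in both directions.

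Over the 4 loci together, 62 of 198 sites (31.3%) had peaks in all 4 libraries, against 32.4% of all sites of the genome. Another 38 (19.2%) had peaks in both P0 and no P8 library, against 17.0%, and 2 (1.01%) had peaks in both P8 and no P0 library, against 1.84%. As a set the loci were therefore near the background. By gene, sites seen in both P0 and no P8 library numbered 9 of 55 for Runx1, 9 of 54 for Runx2, 12 of 49 for Runx3 and 8 of 40 for Cbfb. At the background of the shallowest library, every P0 peak would still have passed the score of the P8 lists at 8, 9, 12 and 8 of these sites. This rescaling took only peaks already called in both P0 libraries, and the part of depth in these sites was not tested.

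**Figure D4:**
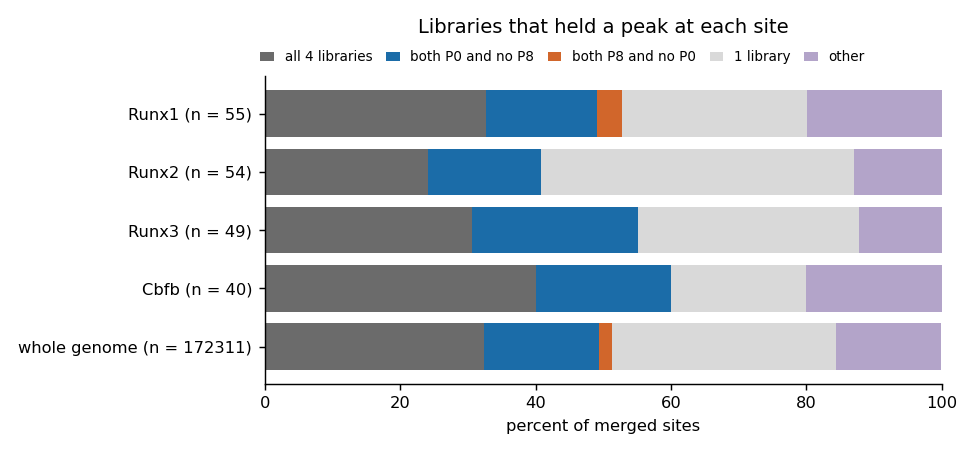
Percent of merged sites by the libraries that held a peak, for each gene and for the whole genome (n, number of sites). The share in both P0 and no P8 library is 24.5% at Runx3 and between 16.4% and 20% at the other genes, against 17.0% in the genome.

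At the 62 sites with a peak in every library, fold enrichment of both P0 libraries exceeded both P8 libraries at 28 (45.2%), against 49.9% of 55890 such sites in the genome. Both P8 libraries exceeded both P0 libraries at 8 (12.9%), against 11.6%. Of these 8, 4 were among the 18 shared sites of Runx1 (22.2%), 3 of them at its starts. This rested on fold enrichment. By percentile among all peaks of each library, 1 of the 18 had both P8 values above, against 16.4% in the genome. By depth-scaled pileup 2 of the 18 did, against 15.65%. The median log2 difference, P0 minus P8, was 0.18 over the 62 sites (quartiles 0.04 and 0.34) and 0.20 over the genome.

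Genes that work with RUNX factors were counted from lists of textbook partners, regulators and targets. The lists were chosen with earlier results of these data known, so their counts are no independent test against all genes. The list counts were not redone with equal numbers of peaks per library. In that setting 3720 in place of 11790 genes had more peaks in both P0 libraries. Of 13 partners and corepressors, 10 had more peaks within 100 kb in both P0 than in both P8 libraries, beside 56.1% of all genes, and 3 overlapped. Hdac4, a deacetylase that represses RUNX2, had 52 and 35 peaks at P0 and 20 and 26 at P8. Cbfa2t3, a corepressor, had 32 and 26 against 14 and 18, its relative Runx1t1 had 28 and 20 against 11 and 13, and Ets1, which binds DNA beside RUNX1, had 44 and 38 against 28 and 32. Of 10 regulators 7 had more at P0. These included Zfp521 (49 and 37 against 28 and 36), Msx2 (24 and 18 against 9 and 16) and the ubiquitin ligase gene Smurf1 (36 and 23 against 22 and 22).

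Of 16 genes known as RUNX targets in cartilage and bone, 14 had more peaks in both P0 libraries, beside 56.1% of all genes, and 2 overlapped. With the list chosen after earlier results were known, this count is no independent result about RUNX targets. Whether it holds with equal numbers of peaks per library was not tested. Sox6 and Sox5, partners of SOX9 in chondrocytes, had 96 and 68 against 46 and 43 peaks and 83 and 61 against 33 and 39. Vegfa, the vessel growth factor of hypertrophic cartilage, had 34 and 32 against 10 and 15, and Acan, the core protein of the cartilage proteoglycan, had 61 and 42 against 27 and 39. Mmp13, a collagenase of hypertrophic cartilage, was the one target with a lower mean at P0, with 12 and 10 against 13 and 10. Ihh and Ibsp, picked out after their values were seen, were the 2 of these 16 targets with a peak within 1 kb of a gene end or start in both P0 and no P8 library. The share over all genes for this class was not computed, so the 2 genes are no result about RUNX targets as a set. Of 5 targets in blood, 2 had more in both P0 libraries, beside the same 56.1%, namely Cd4 with 38 and 37 against 27 and 30 and Csf1r with 30 and 26 against 16 and 25. Spi1 (24 and 21 against 18 and 21) overlapped, and Itgax had 16 and 8 at P0 and 13 and 15 at P8. The median P0 to P8 ratio was 1.37 over partners, 1.32 over regulators, 1.58 over cartilage and bone targets and 1.15 over blood targets, beside 1.29 over all genes.

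**Figure D5:**
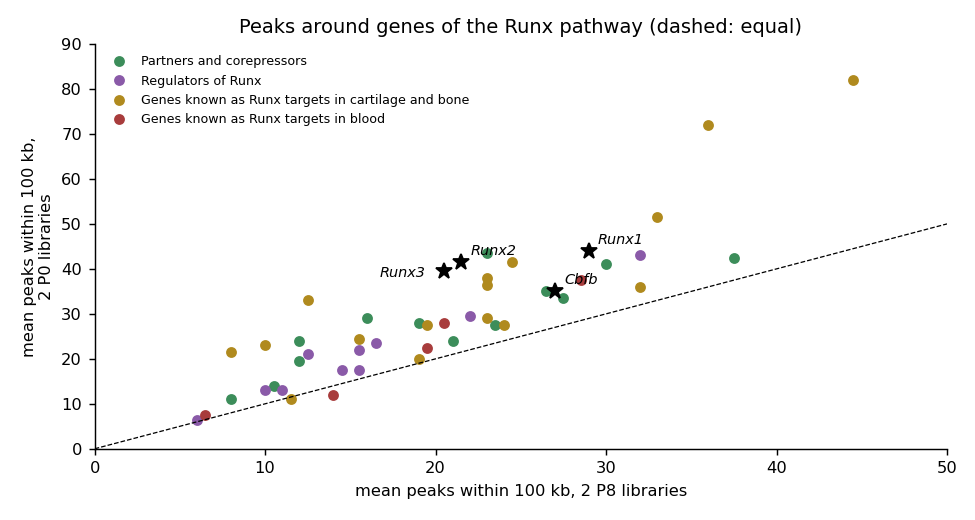
Mean peaks within 100 kb at P0 (y axis) against P8 (x axis), 2 libraries each, for the 4 members (stars) and the genes of the 4 lists (colored points). The dashed line marks equal numbers, and the largest difference is that of Sox6, with means of 82.0 and 44.5 peaks.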

How the data were processed

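ATAC-seq libraries of P0 and P8 chondrocytes (2 each) were sequenced by the authors as 50 bp paired-end reads, aligned with Bowtie2 to mm10, and peaks were called per library with MACS2; tool versions are not given in the sources used here. The deposited peak lists give, per peak, the length in bp, the pileup signal in tags, the fold enrichment as a ratio of pileup to local background, and −log10 p-values and q-values. Tables of the authors' own comparison (DiffBind) and annotation were not used. Total reads per library are unknown, so the lowest background stands for depth.

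Peaks were assigned to libraries by their name prefixes. Genes came from the RefSeq tables for GRCm38.p6, which give gene extents and starts without exons, so exons, introns and UTRs were not told apart. Sites were merged at 1 bp of overlap. Each library's highest value in a site or promoter window (1 kb) was used, ratios are of means with SDs propagated from both passages, and tests were exact two-sided permutations over libraries. Counting steps were tested on simulated data. Members and lists were chosen with earlier results of these data known. The sites named are those at starts, the highest and the widest of each gene, and up to 3 of each passage-restricted class by mean fold enrichment; in the lists, up to 4 genes with the largest difference in peak number. Alternatives covered depth, score threshold, window, overlap, measure and leaving out each library. Computations ran in Python 3.11.15 with scipy 1.17.1, pandas 2.3.3 and numpy 2.4.6, and plots used matplotlib 3.10.9.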

Additional observations from a re-analysis of the deposited data

How the results depend on the processing

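Each passage had 2 libraries and no test could pass a threshold, so the results are values and orders. Of 141 alternative values, 107 stayed within the spread of the value reported (counts within 1.5 times), 29 moved further and 5 changed direction; the cause was not tested. No paired analysis was possible because the peak lists carry no replicate numbers.

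With the same number of peaks from each library, the P0 to P8 ratio was 1.16 in place of 1.63 over the 4 genes, 1.34 at Runx2, 1.28 at Runx3 and 0.981 at Cbfb, the other direction, while 2 of the 4 members and 3720 in place of 11790 genes had more peaks in both P0 libraries. With backgrounds matched, 3 members did, since Cbfb tied. Runx2 gave 2.15 with −log10 q of at least 5, 2.17 as covered length, 1.69 with 20 kb flanks and 1.70 inside the gene. Runx3 gave 3.40 with 20 kb flanks and 4.00 inside the gene. Inside Cbfb the ratio of 1.29 became 0.571 with equal numbers of peaks. Sites in both P8 and no P0 library numbered 0 at −log10 q of at least 5, 5 at 50% reciprocal overlap and 1 with 20 kb flanks. Both P0 libraries had the higher value at 45 shared sites and 5 promoters with pileup over the library's median. With 20 kb flanks, which hold fewer shared sites, they did at 15 sites, and with pileup over the lowest background at 29 sites. The last measure was added after the data were seen, as were the alternative settings inside the genes. Pileup over the median gave 1.03 at the Runx1 distal and 1.09 at the proximal promoter.

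Leaving out 1 library at a time, the ratios ranged from 1.44 to 1.88 over the 4 genes, from 1.22 to 2.00 at Runx1, from 1.81 to 2.05 at Runx2, from 1.66 to 2.20 at Runx3 and from 1.13 to 1.52 at Cbfb. Sites in both P0 and no P8 library ranged from 43 to 79, the latter without P0 library B, and the reverse class from 2 to 10, with 10 without P8 library A and 7 without P8 library B. Shared sites with higher P0 values ranged from 30 to 44, the latter without P8 library B, and such promoters from 3 to 4. Leaving out a library removes a condition of each class. These counts could thus only stay at or rise above the full values of 38, 2, 28 and 3, and they do not test dependence on a library. The Cbfb promoter ratio ranged from 0.978, without P0 library B, to 1.14.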
